A study of Mus musculus with 9 samples.

Results

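The hepatic gene expression of insulin-treated STAM mice was compared with that of untreated STAM mice, which asks what daily insulin changed in the liver of a lean diabetic model of steatohepatitis and liver cancer. The 6 arrays were taken by their labels, as the insulin-treated replicates 1 to 3 (STAM-INS) and the non-treated replicates 1 to 3 (STAM-NON), out of 9 in the series. All 6 mice were male C57BL/6J animals of 20 weeks that had been given a low dose of streptozotocin just after birth, which destroys insulin-secreting β cells, and a high-fat diet (High Fat Diet 32) after weaning. STAM-INS mice additionally received subcutaneous injections of insulin glargine, a long-acting insulin analogue, every day from an early stage of the diet, at a dose set by blood glucose, whereas STAM-NON mice received no insulin. The remaining 3 arrays came from Normal mice without streptozotocin or the high-fat diet, and their values are given only as a reference level. Each mouse contributed 1 piece of snap-frozen liver. Whether a piece held tumor tissue, and at what time of day it was taken, are not given in the sources used here.

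Insulin acts on hepatocytes through the insulin receptor and Akt, which keep the transcription factor FoxO1 out of the nucleus and thereby lower the genes of gluconeogenesis, and which activate SREBP-1c and so raise the genes of fatty acid synthesis. Fatty acid oxidation is driven by PPARα, a nuclear receptor that binds fatty acids and is most active in fasting, when insulin is low. Scarring of the liver comes mainly from stellate cells, which turn into myofibroblasts and lay down collagen.

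Expression is given as the centred log2 signal, that is, log2 of the processed spot intensity after its array's 75th percentile was subtracted, so that a spot at that percentile reads 0 and a difference of 1 is 2-fold. The liver label fitted the markers, with albumin (Alb) between 10.2 and 10.5 on the 6 arrays and 8 of 12 markers of exocrine pancreas too dim to be tested. The share of spots well above background (by the scanner software's own flag; such a spot is said to clear the background) was between 47.8% and 63.1% on the STAM-NON arrays and between 47.8% and 65.0% on the STAM-INS arrays. All 6 arrays lay on 1 slide. The 3 STAM-NON arrays and STAM-INS 1 were in slide row 1, and STAM-INS 2 and 3 were in row 2, so that only STAM-INS 1 can be set against STAM-NON within a row.

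The difference between the groups was about as large as the spread within the untreated group for most of the transcriptome, and far larger for a small set of genes that were mostly of the circadian clock. Over the tested probes, the median absolute difference between 2 arrays was between 0.248 and 0.286 for the 3 pairs of STAM-NON mice, between 0.205 and 0.207 for the 3 pairs of STAM-INS mice and between 0.207 and 0.317 for the 9 pairs of 1 mouse from each group. The untreated mice lay as far from each other (median pair 0.274) as from the insulin-treated mice (median pair 0.250), and the insulin-treated mice lay closest together. Of 26289 probes tested with limma, 25 passed the adjusted p threshold of 0.05 (0.0951%), with 3 higher and 22 lower in STAM-INS, and 1 probe passed by the methods' t-test with the same adjustment. Some of the lower probes entered the test only through the untreated group, which favoured that direction, so that the split is given as a description. With arrays centred on the E1A spike-in spots instead, 65 passed, 16 of them higher, and the median difference over all genes moved from 0.03 to -0.17, so that list medians are best read relative to all genes. At 1 probe per gene, 11 of 13389 genes passed (0.0822%), and 1250 had an unadjusted p under 0.05 (9.34%), of which 636 were higher and 614 lower. The groups did not overlap for 1692 genes (12.6%). A higher mean in STAM-INS was found for 7359 of the 13389 genes, which is the base for counts of list members in either direction. The median absolute difference of a gene was 0.70 times its pooled SD within the groups, and for 8.47% of genes it exceeded 2 SD. A difference over 2-fold was seen for 321 genes, of which 157 had groups that did not overlap. The count of probes past the threshold depended on single arrays, being 56 without STAM-NON 3 and 10 without STAM-INS 3, and it was 7 with STAM-INS 1 as the only treated array within slide row 1, where that array is assumed to vary like the others.

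**Figure D1:**
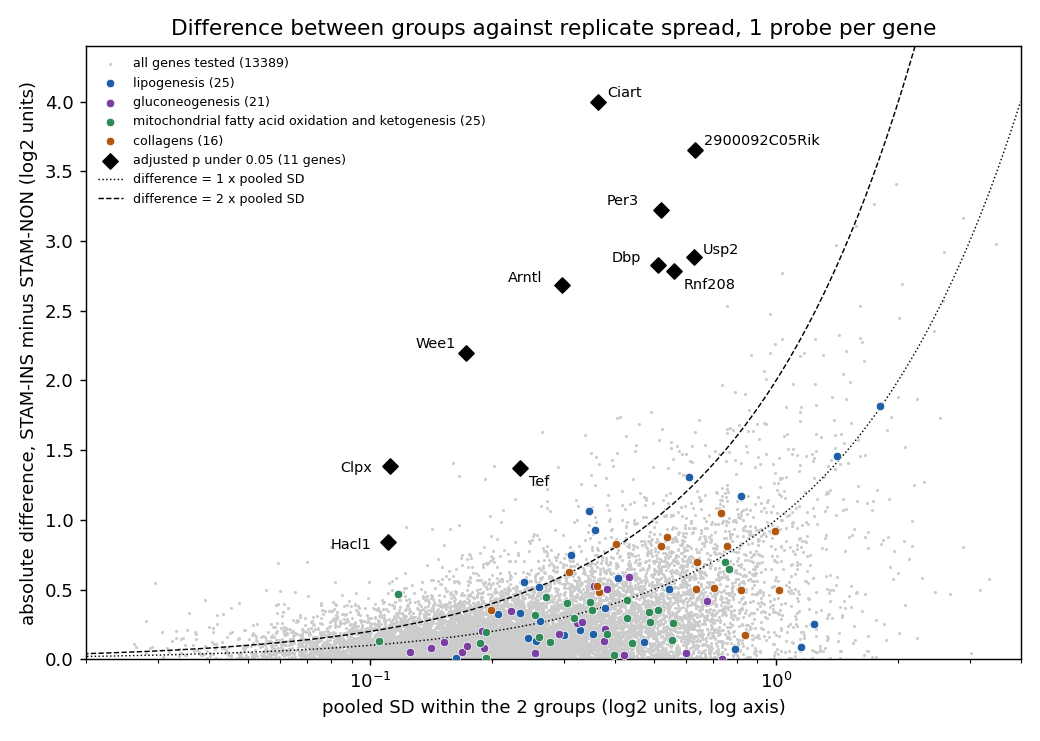
Absolute difference between STAM-INS and STAM-NON (vertical axis, log2 units) against the pooled SD within the 2 groups (horizontal axis, log2 units, log scale) for 13389 genes at 1 probe each, with the genes past the adjusted p threshold as black diamonds and 4 gene lists in colors. The 11 labelled genes lie far above the dashed line at 2 SD, whereas most members of the lipogenic, gluconeogenic, fatty acid oxidation and collagen lists lie below it.

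The clock gave the clearest separation. The molecular clock is a loop in which Bmal1 (Arntl in the annotation used here) and Clock switch on Per, Cry and output genes, whose products then turn the loop down. Of 18 tested clock and output genes, 7 passed the threshold, with 1 higher and 6 lower in STAM-INS. Arntl was -1.89, -1.68 and -1.20 on the STAM-NON arrays and 1.25, 1.20 and 0.83 on the STAM-INS arrays. All insulin-treated mice were thus above all untreated mice, and Arntl rose by 2.68 (SE 0.27, limma adjusted p = 0.0161). Wee1, a kinase gene of the cell cycle that the clock controls, fell by 2.19 (SE 0.16, limma adjusted p = 0.0018), and Dbp, Per3, Tef and Usp2, which are repressors or outputs of the loop, fell by 2.83, 3.22, 1.37 and 2.88. With insulin, Per3 cleared the background on 1 array only. Ciart, a repressor of the loop, cleared it on all 3 arrays of untreated and 0 of 3 of treated mice, which puts it at least 6.83-fold lower in the latter (limma adjusted p = 0.0018). Ciart passed under 23 of 24 and Wee1 under 23 of 25 alternative settings, Arntl under 16 and Dbp under 13 of 25, Per3 under 15 of 24, and Usp2 and Tef under 11 and 8 of 25. The Normal mice were on the side of STAM-NON, with a mean of -2.31 for Arntl and 1.38 for Wee1, but their arrays lay on another slide.

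Promoter sequences of a few members are shown because the clock acts through short DNA elements and because the same element is bound by the glucose-responsive factor of lipogenesis. The letters searched were CACGTG (E-box, the same on both strands), and TTATGTAA or TTACGTAA on either strand (D-box). In the 250 bases before the start of RefSeq genes (GRCm38.p6, 32851 windows of 27025 genes), the E-box was in 6.02% of windows and 1854 of the genes, and the D-box in 0.93% of windows and 296 of the genes. Of 14 tested clock genes with a window, 3 had an E-box and 1 a D-box. Of 20 lipogenic genes 3 had an E-box, as did 4 of 17 genes of cholesterol synthesis, and neither list held a D-box. The sterol element was in 0.07% of windows and 22 of the genes. It was in 0 of the clock, lipogenic and cholesterol synthesis genes with a window. Such matches are letters and not binding sites. Ciart is shown for its 3 E-boxes and Per3 for its 2 D-boxes, both having lower signals in STAM-INS. Mlxipl and Elovl5 are shown as lipogenic genes with an E-box. Both were higher in STAM-INS on the probe used, while the other probe of Mlxipl differed by only 0.04. Capitals mark the match, and Mlxipl is shown by 1 of its 2 windows. The windows are chr3:95882229-95882478 on the minus strand, chr4:151044666-151044915 on the minus strand, chr5:135089640-135089889 on the plus strand and chr9:77917115-77917364 on the plus strand, in that order.
Ciart: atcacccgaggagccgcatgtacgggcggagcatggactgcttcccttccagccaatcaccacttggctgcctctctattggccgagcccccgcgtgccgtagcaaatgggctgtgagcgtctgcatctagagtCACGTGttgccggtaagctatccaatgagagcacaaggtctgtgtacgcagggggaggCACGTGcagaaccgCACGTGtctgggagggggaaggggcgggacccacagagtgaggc
Per3: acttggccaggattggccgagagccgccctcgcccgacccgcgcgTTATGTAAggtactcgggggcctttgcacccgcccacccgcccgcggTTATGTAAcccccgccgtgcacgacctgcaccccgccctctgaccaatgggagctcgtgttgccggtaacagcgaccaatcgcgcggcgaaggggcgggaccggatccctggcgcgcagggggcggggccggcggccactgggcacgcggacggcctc
Mlxipl: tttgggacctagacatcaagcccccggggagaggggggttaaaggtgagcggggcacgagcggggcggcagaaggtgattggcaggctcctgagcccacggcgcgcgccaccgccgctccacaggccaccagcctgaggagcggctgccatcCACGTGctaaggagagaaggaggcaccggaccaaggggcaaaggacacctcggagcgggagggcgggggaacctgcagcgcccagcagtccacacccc
Elovl5: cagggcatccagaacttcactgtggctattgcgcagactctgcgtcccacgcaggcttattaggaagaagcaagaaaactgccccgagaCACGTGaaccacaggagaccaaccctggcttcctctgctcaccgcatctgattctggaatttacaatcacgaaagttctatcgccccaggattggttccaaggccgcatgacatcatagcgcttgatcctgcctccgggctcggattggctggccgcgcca

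Outside the clock list, the lists of metabolic, fibrotic, inflammatory and cell type genes held 454 tested genes, of which 1 passed the threshold. That gene was Hacl1, which encodes a peroxisomal lyase of α-oxidation, the route by which branched fatty acids such as phytanic acid are shortened. Hacl1 was 6.16, 6.20 and 6.06 in STAM-NON and 6.89, 6.91 and 7.14 in STAM-INS. The groups did not overlap, and Hacl1 rose by 0.84 (SE 0.11, limma adjusted p = 0.0478). It passed under 5 of 25 alternative settings, with an adjusted p between 0.0104 and 0.9999. Clpx, the unfolding subunit of a mitochondrial matrix protease, was in no list and rose by 1.38 (SE 0.11, limma adjusted p = 0.0034), from 3.57, 3.48 and 3.29 in STAM-NON to 4.83, 4.91 and 4.76 in STAM-INS, and it passed under 17 of 25 alternatives. Nrg4, a secreted ligand of ErbB receptors, fell by 1.25 on 1 probe (limma adjusted p = 0.0494), while its brighter probe had a difference of -1.60 with a limma adjusted p of 0.168. Nrg4 passed under 5 of 25 alternatives. Rnf208, a ubiquitin ligase gene, likewise did not clear the background in treated mice, where its level was at least 2.59-fold lower (limma adjusted p = 0.0404), and the unnamed transcript 2900092C05Rik fell by 3.65, with 1 of 3 STAM-INS arrays well above background. These 2 genes, which passed under 8 and 13 of 24 alternatives, entered the test only through the untreated group, since they did not clear the background in Normal mice, so that a difference was favoured by the filter and their adjusted p is given as a description. The other 12 probes past the threshold could not be given a gene symbol, and all were lower in STAM-INS. On 11 of these the signal was well above background on 3 of 3 STAM-NON arrays and on 0 of 3 STAM-INS arrays, and 10 of the 11 did not clear it in Normal mice either. These 10 also entered the test only through the untreated group, so that a lower signal in STAM-INS was favoured by the filter.

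Genes of fatty acid synthesis were mostly higher with insulin, by less than could be told from the spread of the untreated mice gene by gene. Of 25 lipogenic genes, none passed the threshold, 7 had an unadjusted p under 0.05 with all 7 higher in STAM-INS (4.75% of all genes), and 5 had groups that did not overlap, all higher (7.71% of all genes). In all, 20 of 25 were higher (15 with E1A centring), and the median difference was 0.27 against 0.03 over all genes. Acss2, which makes cytosolic acetyl-CoA from acetate, was 3.37, 3.37 and 4.02 in STAM-NON and 4.31, 4.94 and 4.69 in STAM-INS. Every treated mouse was above every untreated mouse, with a difference of 1.06 (SE 0.24, limma adjusted p = 0.326). Acacb, the mitochondrial acetyl-CoA carboxylase whose product blocks fatty acid entry into mitochondria, differed by 0.93, and Elovl5, an elongase of polyunsaturated fatty acids, by 0.75, likewise without overlap. Mlxipl, which encodes the glucose-responsive factor ChREBP, was 5.28, 5.60 and 5.69 in STAM-NON and 6.36, 5.86 and 6.01 in STAM-INS, a difference of 0.56 (limma adjusted p = 0.472). Its other probe differed by only 0.04.

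Scd1 and Fasn, among the best known enzymes of the pathway, were uneven among the untreated mice. Scd1, the desaturase that makes oleate, was 6.75, 6.89 and 8.17 in STAM-NON and 8.16, 8.69 and 8.87 in STAM-INS, so that STAM-NON 3 alone reached the treated mice (difference 1.31, 95% interval 0.46 to 2.15, limma adjusted p = 0.450). Fasn, the fatty acid synthase, was 0.67, 2.29 and 2.80 in STAM-NON and 2.73, 3.37 and 3.16 in STAM-INS, a difference of 1.17 (95% interval 0.01 to 2.33, limma adjusted p = 0.566). Again STAM-NON 3 was the highest of the untreated mice and overlapped the lowest treated mouse, while STAM-NON 1 was far below the rest, and without it the Fasn difference was 0.55. Acly, which makes acetyl-CoA from citrate, differed by 0.58, and Acaca, the cytosolic carboxylase, by 0.50. The regulator Srebf1 did not follow them, with a difference of -0.18 (95% interval -0.90 to 0.55), and Thrsp, a lipogenic coactivator, differed by 0.07 and the elongase Elovl6 by 0.21. Pnpla3, a lipid droplet lipase under SREBP-1c, cleared the background in all treated mice and in 2 of 3 untreated mice, with a difference of 1.46 (95% interval -0.48 to 3.40). Its values are given as a description, since it did not qualify for the test through STAM-NON. The list level of a mouse, taken as the median over members of the signal minus its mean over the 6 STAM mice, was -0.36, -0.15 and -0.10 in STAM-NON and 0.00, 0.29 and 0.21 in STAM-INS. STAM-INS 1 was the lowest of the treated mice, and within slide row 1 the median difference of the list was 0.07.

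Genes of cholesterol synthesis were likewise mostly higher with insulin. All 25 tested genes of the pathway and its regulators had a higher mean in STAM-INS (21 with E1A centring), with a median difference of 0.42, and none passed the threshold. An unadjusted p under 0.05 was reached by 7 genes, all higher (4.75% of all genes), and 5 had groups that did not overlap, all higher (7.71% of all genes). Tm7sf2, a sterol reductase, was 5.13, 5.10 and 5.75 in STAM-NON and 6.15, 6.25 and 6.17 in STAM-INS, a difference of 0.86 (SE 0.19, limma adjusted p = 0.310). Pmvk, a kinase of the mevalonate pathway, differed by 0.76, the desaturase Sc5d by 0.55 and Acat2, which makes acetoacetyl-CoA, by 0.67. Here too STAM-NON 3 lay among the treated mice, with a list level of 0.15 against -0.36 and -0.51 in STAM-NON 1 and 2, and against 0.36, 0.35 and -0.12 in STAM-INS. The median difference was 0.67 without STAM-INS 3, the lowest of the treated mice. It was 0.35 without STAM-INS 2 and 0.36 without STAM-NON 2.

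Gluconeogenic genes did not separate the groups. Of 21 tested genes of the pathway and its regulators, none passed the threshold, none had an unadjusted p under 0.05 (9.34% of all genes) and none had groups that did not overlap (12.6% of all genes), and the median difference was -0.04. Pck1, the phosphoenolpyruvate carboxykinase that commits carbon to glucose, was 8.68, 8.65 and 7.83 in STAM-NON and 8.02, 8.03 and 7.60 in STAM-INS (difference -0.50, 95% interval -1.05 to 0.04, limma adjusted p = 0.586). G6pc, the glucose-6-phosphatase that releases glucose, was 6.55, 6.86 and 5.50 in STAM-NON and 7.01, 7.17 and 5.99 in STAM-INS (difference 0.42, 95% interval -0.56 to 1.39). These 2 enzymes thus had differences of opposite sign, and each was lowest in replicate 3 of both groups. Fbp1, the fructose bisphosphatase, differed by 0.08 (95% interval -0.27 to 0.43) and Pcx, the pyruvate carboxylase, by -0.04 (95% interval -0.43 to 0.35). The coactivator gene Ppargc1a differed by -0.21, and Foxo1, which insulin acts on mainly through its protein, by -0.35 (95% interval -0.70 to 0.01).

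Of genes that insulin is known to repress, a list that shares Pck1, G6pc and Ppargc1a with the one above, none passed the threshold either. Igfbp1, a secreted IGF-binding protein that rises in fasting, was 7.98, 6.38 and 7.41 in STAM-NON and 7.78, 8.66 and 5.51 in STAM-INS, and the insulin receptor substrate Irs2 ran from 2.66 to 4.01 against 2.45 to 4.07. Neither gene separated the groups, and the difference was 0.06 (95% interval -1.64 to 1.76) for Igfbp1 and 0.13 (95% interval -0.94 to 1.19) for Irs2. Over the 20 tested genes of this list, 2 had an unadjusted p under 0.05, both lower (4.59% of all genes), 3 had groups that did not overlap (12.6% of all genes), and the median difference was 0.02. Klf15, a factor that promotes the use of amino acids for glucose, was among these, with 3.33, 3.41 and 3.04 in STAM-NON against 2.82, 3.02 and 2.66 in STAM-INS (difference -0.43, limma adjusted p = 0.564). The insulin receptor gene Insr ran from 0.94 to 1.01 in STAM-NON and from 1.06 to 1.20 in STAM-INS, which did not overlap but differed by only 0.14 (95% interval -0.09 to 0.37). Igf1r, the IGF1 receptor, was lower by a difference of -0.71 without overlap.

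Among genes of glucose use and glycogen, 29 were tested and none passed the threshold. At an unadjusted p under 0.05, 2 were higher (4.75% of all genes) and 2 lower (4.59% of all genes). Ppp1r3c, a subunit that brings phosphatase to glycogen and favours its synthesis, was 0.82, 2.29 and 0.91 in STAM-NON and 3.18, 2.57 and 3.16 in STAM-INS, without overlap (difference 1.63, SE 0.46, limma adjusted p = 0.450). The liver glycogen synthase Gys2 went the other way, with a difference of -0.68 (SE 0.21, limma adjusted p = 0.472) and no overlap. Pfkfb1, which sets fructose 2,6-bisphosphate, differed by -0.37, likewise without overlap. Gckr was higher in STAM-INS without overlap, with a difference between 0.22 and 0.44 when 1 array was left out. Pkm, the pyruvate kinase of dividing cells, differed by -0.48 (95% interval -1.45 to 0.48).

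**Figure D2:**
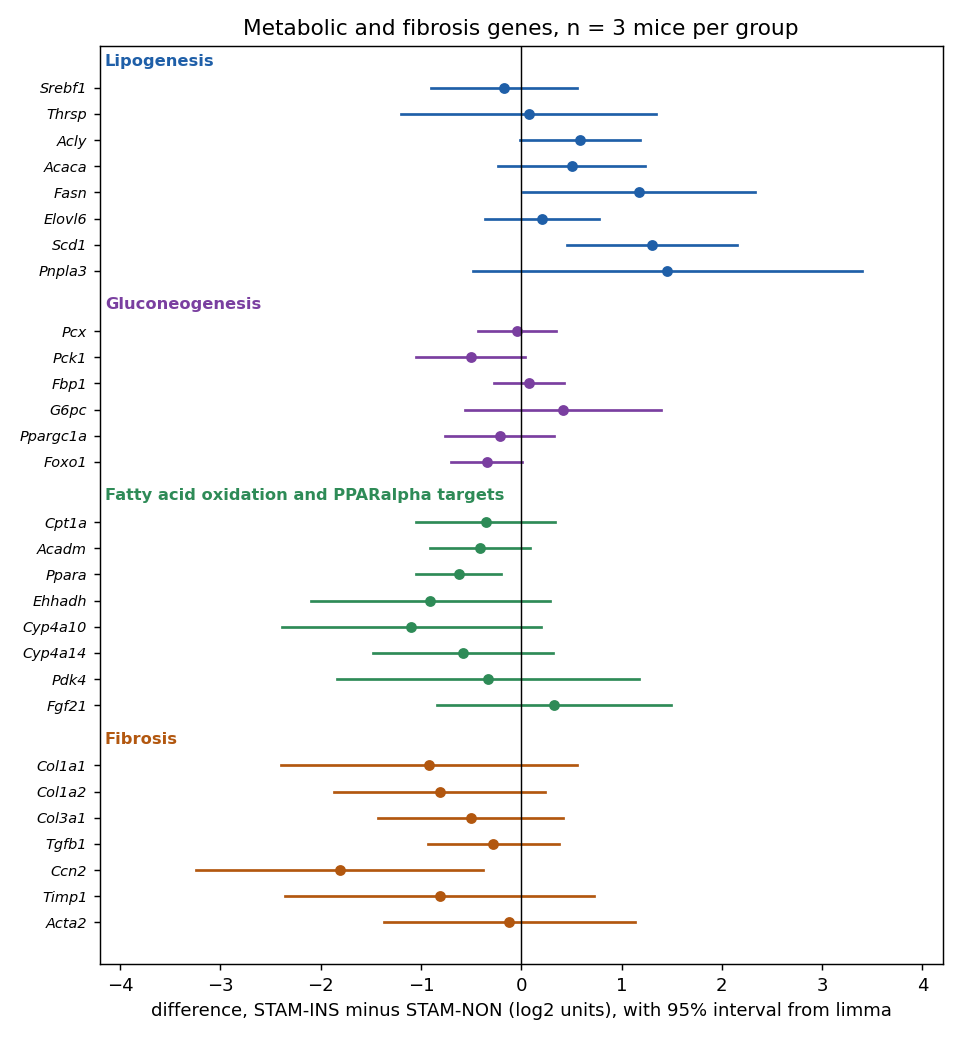
Difference between STAM-INS and STAM-NON (horizontal axis, log2 units) for well-known genes of lipogenesis, gluconeogenesis, fatty acid oxidation and fibrosis, taken by name; points are the limma estimates and lines the 95% intervals, from 3 mice per group. The intervals of Fasn, Scd1, Ppara and Ccn2 leave out 0 before any adjustment, and those of all 6 gluconeogenic genes include it.

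Genes of mitochondrial fatty acid oxidation and ketogenesis had mostly lower means with insulin, and this rested on which untreated mouse they were compared with. Of 25 tested genes, 2 were higher and the median difference was -0.26. None passed the threshold, and 1 gene in each direction had an unadjusted p under 0.05 (4.75% of all genes higher and 4.59% lower). Cpt1a, the carnitine palmitoyltransferase that admits long-chain fatty acids to mitochondria, was 6.54, 6.03 and 5.23 in STAM-NON and 5.84, 5.26 and 5.63 in STAM-INS (difference -0.36, 95% interval -1.05 to 0.34). STAM-NON 1 and 2 were above all treated mice, and STAM-NON 3 was below all of them. Acadm, the medium-chain dehydrogenase, had the same order, with 7.02, 6.90 and 6.14 against 6.24, 6.17 and 6.42 (difference -0.41, 95% interval -0.91 to 0.09). Over the whole list, the level of a mouse was 0.46, 0.31 and -0.34 in STAM-NON and -0.19, -0.21 and 0.04 in STAM-INS. The median difference was -0.57 without STAM-NON 3 and -0.08 without STAM-NON 1. Acsl5, an acyl-CoA synthetase that is also tied to triglyceride synthesis, was the exception among the members, with 4.56, 4.44 and 4.61 against 4.85, 5.04 and 5.12 (difference 0.47, SE 0.14, limma adjusted p = 0.472).

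Targets of PPARα and peroxisomal oxidation showed this pattern with larger values. Of 27 tested genes, 22 had a lower mean in STAM-INS, with a median difference of -0.48. Beside Hacl1, which rose, 5 had an unadjusted p under 0.05, all lower (4.59% of all genes), and 3 lower genes had groups that did not overlap (4.93% of all genes). Ppara itself was 6.38, 6.42 and 5.96 in STAM-NON and 5.60, 5.36 and 5.93 in STAM-INS, so that the groups missed each other by 0.04 (difference -0.63, 95% interval -1.05 to -0.20, limma adjusted p = 0.472). Its other probes differed by -0.58 and -0.54. Pex11a, which drives peroxisome division, was 7.18, 6.95 and 6.17 against 5.67, 5.95 and 6.09, and Acot3, a peroxisomal thioesterase, was 4.01, 2.54 and 1.88 against 1.46, 1.09 and 1.59, neither with overlap. In each of these genes STAM-NON 3 was the lowest of the untreated mice.

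For the fatty acid hydroxylase Cyp4a10, STAM-NON 1 and 2 had 8.83 and 8.42, STAM-NON 3 had 6.27, and the treated mice lay between 6.57 and 6.98 (difference -1.10, 95% interval -2.39 to 0.19). The difference of Cyp4a10 was -1.88 without STAM-NON 3 (limma adjusted p = 0.0225) and -0.60 without STAM-NON 1 (limma adjusted p = 0.999994). Cyp4a14, a close paralog that may share its probe signal, differed by -0.58, and Ehhadh, the bifunctional peroxisomal enzyme, by -0.91 (95% interval -2.10 to 0.29). STAM-NON 3 was the lowest of all 6 mice for each of these 3 genes. Pdk4, a kinase that spares glucose in fasting, and Fgf21, a fasting hormone of the liver, differed by -0.33 and 0.33, with 95% intervals of -1.84 to 1.18 and -0.84 to 1.49. The median difference of the list was -0.14 without STAM-NON 1, -0.28 without STAM-NON 2 and -0.95 without STAM-NON 3. The level of a mouse over this list was 0.71, 0.49 and -0.60 in STAM-NON against -0.29, -0.43 and -0.01 in STAM-INS. In the Normal mice it was between 0.22 and 0.56.

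**Figure D3:**
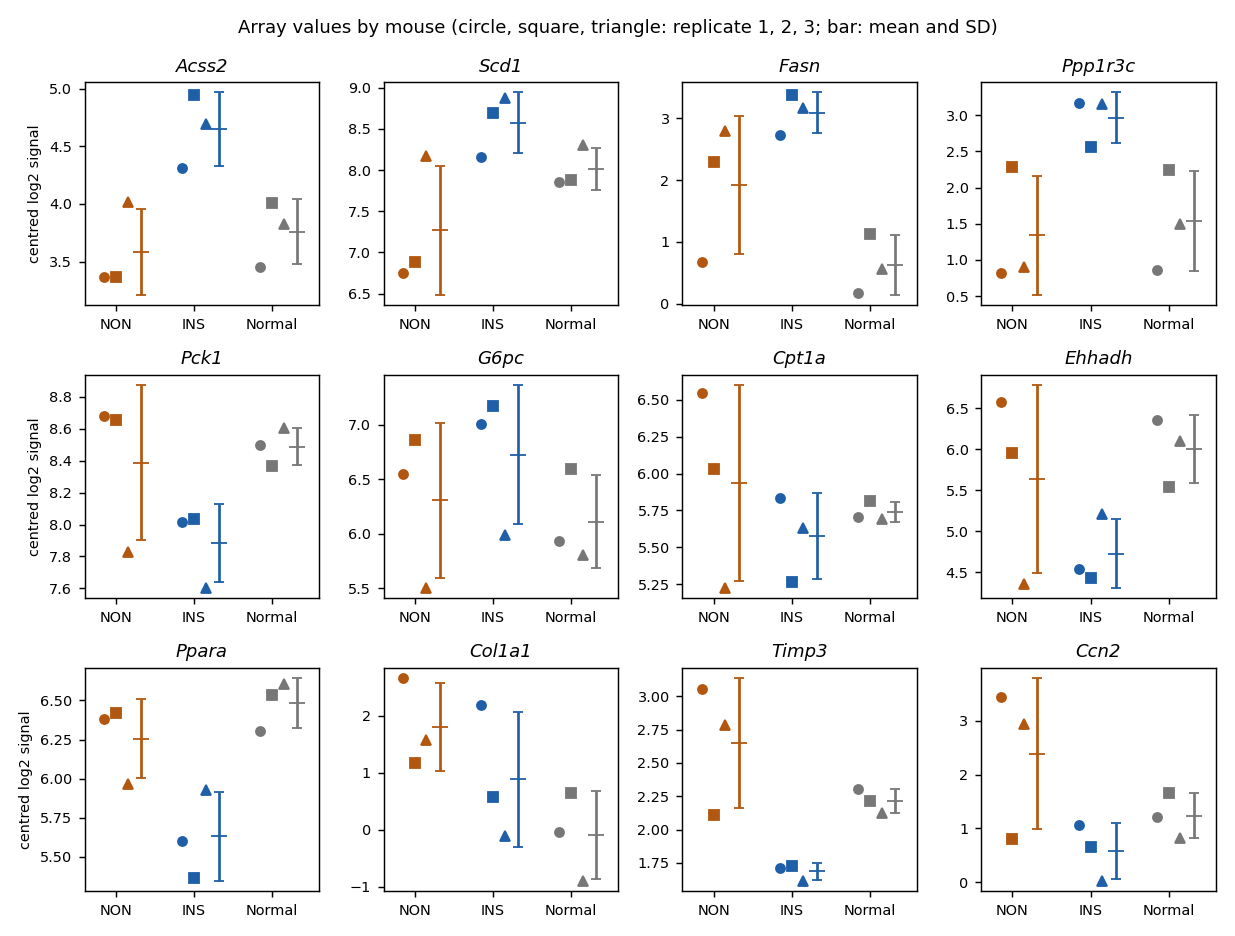
Centred log2 signal (vertical axes) of 12 genes in each mouse of STAM-NON, STAM-INS and Normal, with replicate 1, 2 and 3 as circle, square and triangle, and the mean and SD of 3 mice as a bar at the right of each group. Acss2, Ppp1r3c, Ppara and Timp3 separate the treated from the untreated mice, Scd1 and Fasn overlap through STAM-NON 3, Cpt1a and Ehhadh are split among the untreated mice, and Pck1, G6pc and Col1a1 overlap.

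Of 27 genes of lipid droplets and fatty acid uptake, none passed the threshold. An unadjusted p under 0.05 was found for 4, all lower in STAM-INS (4.59% of all genes). The median difference was -0.15. Cidea, a protein that fuses lipid droplets, was 5.87, 1.72 and 1.80 in STAM-NON and -0.06, -0.84 and 0.48 in STAM-INS, without overlap (difference -3.27, 95% interval -5.63 to -0.91, limma adjusted p = 0.477). STAM-NON 1 stood far above the other two. The summed signal of the 5 of 10 adipocyte markers that were tested, which include Cidec, was between 21.5 and 82.0 in STAM-NON, highest in STAM-NON 1, and between 12.2 and 28.1 in STAM-INS, while Adipoq, Plin1, Ucp1, Lep and Retn were too dim to be tested, and the part of adipocytes in these values was not tested. Cidec, of the same family, was 5.74, 3.44 and 1.68 against 2.31, 0.95 and 1.62, with overlap (difference -1.99, limma adjusted p = 0.566). Vldlr, a receptor for triglyceride-rich particles, was 2.26, 0.83 and 0.63 against 0.35, -0.07 and 0.01 (difference -1.14, limma adjusted p = 0.515). The uptake protein Cd36 and the droplet coat protein Plin2 overlapped, with differences of -0.37 (95% interval -1.06 to 0.33) and 0.16 (95% interval -0.65 to 0.96).

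Fibrosis genes had lower means with insulin as a group and overlapped for the main fibrillar collagens. Of 16 tested collagen genes, 3 had a higher mean, none passed the threshold, 4 had an unadjusted p under 0.05 and were lower (4.59% of all genes), and 2 had one and were higher (4.75% of all genes). The median difference was -0.52. Col1a1, a chain of the main scar collagen, was 2.66, 1.18 and 1.58 in STAM-NON and 2.19, 0.57 and -0.11 in STAM-INS. STAM-INS 1 was above 2 of the 3 untreated mice, and the difference was -0.92 (95% interval -2.39 to 0.56, limma adjusted p = 0.725). Col1a2 was 4.16, 2.74 and 3.55 against 3.60, 2.24 and 2.18 (difference -0.81) and Col3a1 was 2.71, 1.77 and 2.06 against 2.48, 1.58 and 0.97 (difference -0.50), each with overlap of the same kind. Col6a1, of the microfibrils, and Col16a1, a fibril-associated collagen, did not overlap, with differences of -0.82 and -0.63. Col18a1, a basement membrane collagen that hepatocytes also make, was higher without overlap (difference 0.35). The level of a mouse over the list was 0.78, -0.20 and 0.45 in STAM-NON and 0.07, -0.35 and -0.50 in STAM-INS, and the median difference was -0.82 without STAM-NON 2, -0.42 without STAM-NON 1 and -0.26 within slide row 1. The summed signal of the list, in multiples of the 75th percentile spot, did not follow its median, being between 137 and 169 in STAM-NON and between 160 and 164 in STAM-INS, and Col18a1 was its brightest member.

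Among genes of matrix remodelling and TGF-β signalling, 26 were tested, 3 had a higher mean and the median difference was -0.49, or -0.81 without STAM-NON 2 and -0.34 without STAM-NON 1. The summed signal of the list overlapped, being between 480 and 727 in STAM-NON and between 481 and 646 in STAM-INS. None passed the threshold. An unadjusted p under 0.05 was found for 7 lower genes (4.59% of all genes) and 2 higher genes (4.75% of all genes). Timp3, an inhibitor of matrix proteases bound to the matrix, was 3.06, 2.11 and 2.78 in STAM-NON and 1.71, 1.73 and 1.61 in STAM-INS. The treated mice lay close together and below all untreated mice (difference -0.97, SE 0.22, limma adjusted p = 0.321). Dcn, a small proteoglycan that binds collagen, was 6.76, 6.13 and 6.80 against 5.90, 5.80 and 6.08 (difference -0.64), and Thbs2, a matricellular protein, differed by -1.14 with 1 of 3 STAM-INS arrays well above background. Ccn2, the connective tissue growth factor induced by TGF-β, was 3.44, 0.80 and 2.94 against 1.07, 0.65 and 0.02 (difference -1.81, 95% interval -3.24 to -0.38, limma adjusted p = 0.495). Here STAM-NON 2 lay among the treated mice. Timp1, another protease inhibitor, and Tgfb1, the main profibrotic cytokine, overlapped as well, with differences of -0.81 (95% interval -2.35 to 0.73) and -0.28 (95% interval -0.93 to 0.38). Without STAM-NON 2, Timp3 had a limma adjusted p of 0.0353. Loxl4, a collagen cross-linking oxidase, was the opposite case, with -3.84, -5.69 and -3.06 against -2.23, -0.95 and -2.81 (difference 2.20, limma adjusted p = 0.472), and was well above background on 2 of 3 STAM-NON arrays. Loxl4 thus did not qualify for the test through STAM-NON, nor Thbs2 through STAM-INS. Both genes are in the counts above, and their values are given as a description. Lox was not well above background on any of the 9 arrays and was not tested.

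Markers of stellate cells had mostly lower means in STAM-INS, as the matrix genes did. Of 17 tested markers none passed the threshold, 6 had an unadjusted p under 0.05, all lower in STAM-INS (4.59% of all genes), 3 had groups that did not overlap, all lower (4.93% of all genes), and the median difference was -0.54, or -0.35 without STAM-INS 2. Colec11 and Nes differed by -0.69 and -0.54 without overlap, while Acta2, the smooth muscle actin of myofibroblasts, was -0.12, 1.62 and 0.65 in STAM-NON and 1.28, -0.04 and 0.55 in STAM-INS (difference -0.12, 95% interval -1.37 to 1.13). The summed signal of the markers was between 170 and 235 in STAM-NON and between 127 and 159 in STAM-INS, and Gfap was the marker too dim to be tested. The level of a mouse over the list overlapped, being 0.441, -0.112 and 0.399 in STAM-NON and -0.107, -0.446 and -0.166 in STAM-INS. Dcn, given above, belongs to both the matrix list and this one. In bulk liver, fewer cells of a type and less RNA per cell cannot be told apart, and the part of stellate cell number in the collagen and matrix values was not tested. Lower means were also found for 13 of 14 endothelial markers (median difference -0.27), 14 of 19 of Kupffer cells and macrophages (-0.17) and 7 of 10 biliary and progenitor markers (-0.26). Higher means were found for 2 of 7 neutrophil markers (-0.72), 5 of 10 lymphocyte markers (-0.05) and 5 of 6 erythroid markers (0.47). For each of these cell types the levels of the mice overlapped between the groups. The summed signal of hepatocyte markers was between 7663 and 10011 in STAM-NON and between 9661 and 10671 in STAM-INS.

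**Figure D4:**
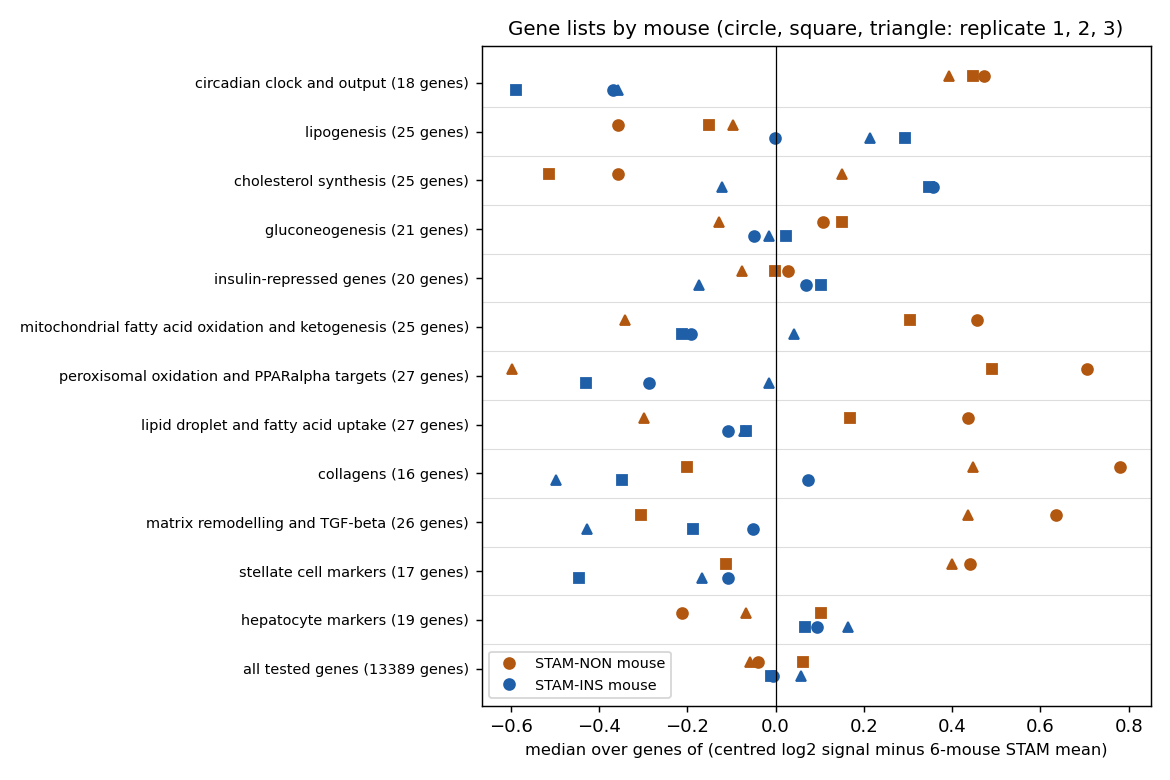
Level of 12 gene lists and of all tested genes in each STAM mouse (horizontal axis, median over genes of the centred log2 signal minus its mean over the 6 STAM mice; circle, square and triangle are replicate 1, 2 and 3). Treated and untreated mice separate widely for the clock (nearest mice 0.39 in STAM-NON and -0.36 in STAM-INS). They separate narrowly for lipogenesis (nearest mice -0.10 in STAM-NON and 0.00 in STAM-INS). STAM-NON 3 stands apart from STAM-NON 1 and 2 in fatty acid oxidation and PPARα targets, and STAM-NON 2 stands apart from STAM-NON 1 and 3 in collagens and matrix genes.

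Inflammatory genes did not follow the matrix genes. Of 24 tested genes, none passed the threshold, and 17 had a higher mean in STAM-INS (7359 of 13389 over all genes), or 11 with E1A centring. An unadjusted p under 0.05 was found for 3 higher genes (4.75% of all genes) and 1 lower gene (4.59% of all genes). The groups did not overlap for 4 genes, all higher (7.71% of all genes). The acute-phase proteins Saa1 and Saa2, which hepatocytes secrete in response to IL-6 and IL-1, had the largest differences. Saa1 was 5.24, 7.03 and 6.98 in STAM-NON and 8.07, 10.16 and 9.33 in STAM-INS (difference 2.77, SE 0.60, limma adjusted p = 0.310), and Saa2, whose near-identical sequence may share signal with Saa1, differed by 2.48. Il18 was higher by a small and even margin, with 1.46, 1.33 and 1.59 against 1.86, 1.84 and 1.83 (difference 0.38). The monocyte chemokine Ccl2 differed by 0.22 (95% interval -0.77 to 1.21), and Tnf and Il6 were too dim to be tested. Of 19 tested markers of Kupffer cells and macrophages, 1 had an unadjusted p under 0.05 (9.34% of all genes). This was the integrin Itgam, which was higher on the probe used (difference 0.44) and differed by -0.19 on its other probe.

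Markers of cell division varied among mice more than between groups. Of 19 tested genes none had an unadjusted p under 0.05 (9.34% of all genes). Mki67, a marker of cycling cells, was 0.87, -1.25 and 1.41 in STAM-NON and 0.10, 1.60 and -0.52 in STAM-INS (difference 0.05, 95% interval -1.58 to 1.68). The fetal protein Afp was 1.93, 0.83 and 1.87 against 3.46, 1.24 and 0.53 (difference 0.19, 95% interval -1.42 to 1.81). Both intervals held differences of more than 2-fold in either direction, so that a change of that size was not detectable.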

How the data were processed

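Total RNA of 9 mouse livers, 3 per group, was hybridised to 1-colour Agilent arrays, 1 array per mouse. The labels name a FAVORGEN kit for the RNA and the study's methods a Qiagen one. The deposited files hold processed signal intensity per spot, as Agilent Feature Extraction 11.5.1.1 wrote it (name and version from the submitters' processing notes), not normalized between arrays.

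Control and outlier spots were left out, log2 intensity was centred on the 75th percentile of each array and spots of a probe were averaged. Probes were named through their accessions from RefSeq (GRCm38.p6), which gave 27656 probes 1 of 20972 symbols, and the brightest probe stood for a gene. A probe was tested where at least 0.5 of its spots in a group were well above background. The lmFit and eBayes functions of limma 3.58.1 (R 4.3.3; two-sided, Benjamini-Hochberg adjustment) were run on all 9 arrays, with STAM-INS minus STAM-NON as the contrast. Where no array of a group cleared the background, a bound was given, with a floor per array at the higher of the dimmest cleared signal and the probe's own. Each group has 3 mice, so that an exact permutation test could not go below 0.1 and was not used.

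The 28 gene lists and the comparison were chosen with earlier results of these data known. The 535 listed genes held 526 that were on the array and 472 that were tested. The text names the genes past the threshold, well-known genes of each list (some are not reported here), up to 4 further members per list with an unadjusted p under 0.05 and no overlap, and outside the lists the 8 largest differences in each direction by the same criteria. Scaling, background correction, filter, model, slide position and each array were varied. The mean signal column was not used, and the normexp alternative took the median signal and background median with an offset of 50. The fit was tested on simulated data.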

Additional observations from a re-analysis of the deposited data

Results flagged for a closer look

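ERCC control spots, which no comparison used, were well above background on more of their 2772 spots in 3 STAM arrays than in any Normal array, where the highest share was 6.60%. The share was 8.91% on STAM-NON 1, 15.5% on STAM-NON 3 and 18.1% on STAM-INS 1.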

How the results depend on the processing

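The 25 probes past the threshold became 8 with the 6 STAM arrays alone, 7 with no filter on dim probes, 5 with probes well above background on all 6 STAM arrays, 13 with the slide row as a block, 7 within slide row 1, 65 (16 higher) with arrays centred on the E1A spike-in spots, 1 by the methods' t-test after Benjamini-Hochberg adjustment and 301 (116 higher) by that test at the methods' threshold, an unadjusted p under 0.1 with a fold over 2. Leaving out 1 array gave 10 to 56 probes, the highest without STAM-NON 3 and the lowest without STAM-INS 3, with 11 without Normal 2 and 12 without STAM-INS 2. The cause was not tested. E1A centring moved the median of all genes from 0.03 to -0.17, lipogenesis to 0.072 and gluconeogenesis to -0.24, which relative to all genes were 0.25 and -0.07. Lipogenesis was 0.075 with the slide row as a block and within slide row 1, and 0.23 to 0.47 when 1 array was left out, the highest without STAM-INS 1. No result changed sign past a threshold. Of 99 named genes that did not pass, 87 passed under none of the alternatives. Ache, Cidea, Fabp3, Fam217b, Grik4, Mmp7, Reg3b, Saa1 and Saa2 passed with E1A centring, Timp3 without STAM-NON 2, and Cyp4a10, Fam217b and Tm7sf2 without STAM-NON 3. Of these, Ache, Fam217b, Grik4 and Reg3b entered the test only through the group where they were higher.

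With the replicate number as a replicate block, 6 probes passed. Deviations of same-numbered mice correlated at 0.15, -0.29 and -0.11 over probes, and those of differently numbered mice at between -0.19 and 0.28. These values gave no sign of pairing by number and cannot show its absence, and the mice were treated as unpaired.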

Other observations

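No gene of the growth hormone and IGF axis or of bile acid handling passed the threshold. Of 16 tested genes of the IGF axis, 6 had an unadjusted limma p under 0.05 (9.34% of all genes), with 2 higher and 4 lower in STAM-INS, and 5 had groups that did not overlap (12.6% of all genes). Stat5b, which carries the growth hormone signal to the nucleus, was 2.87, 2.88 and 2.77 in STAM-NON and 3.28, 3.39 and 3.32 in STAM-INS (difference 0.49, limma adjusted p = 0.331), and Igf2r, the receptor that clears IGF2, was 2.09, 2.06 and 1.93 against 1.78, 1.76 and 1.75 (difference -0.26). Igfbp5, an IGF-binding protein, differed by -1.19 without overlap. Of 18 tested genes of bile acid handling, 3 had an unadjusted p under 0.05, all higher (4.75% of all genes), and 4 had groups that did not overlap, all higher (7.71% of all genes). The former were Abcb11, the bile salt export pump (difference 0.89), Fgfr4, the receptor through which FGF19 and FGF15 limit bile acid synthesis (difference 0.70), and Cyp27a1, a sterol hydroxylase (difference 0.70), and STAM-NON 1 was the lowest mouse for each. Sox9 and Cftr, which mark biliary cells, differed by 0.60 and 0.48, while 7 of the 10 tested biliary and progenitor markers had a lower mean.

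Outside the lists, the genes with the largest differences among those without overlap were of varied function. Reg3b, an acute-phase lectin, was -6.86, -3.25 and -2.20 in STAM-NON and -0.94, 0.77 and -1.90 in STAM-INS, and was well above background on 2 of 3 STAM-NON arrays (difference 3.41, limma adjusted p = 0.491). Slc30a10, a manganese exporter, was -2.03, -0.12 and -0.21 against 0.80, 1.23 and 1.37 (difference 1.92, limma adjusted p = 0.337). Scara5, a ferritin receptor, Dct, Avpr1a, the hepatic vasopressin receptor, Dhrs9, a retinol dehydrogenase, and Wnt10a differed by 2.33, 2.27, 2.07, 1.74 and 1.69. Kap, an androgen-regulated gene, did not clear the background in STAM-NON and was higher with insulin by at least 2.11-fold. Fabp3, a fatty acid-binding protein of muscle, was 3.12, -1.24 and -2.34 against -2.88, -2.99 and -2.66 (difference -2.69, limma adjusted p = 0.566), so that STAM-NON 1 set most of its difference. Mmp7, a matrix protease, Ache, Grik4, Fam217b and Aim2 differed by -2.30, -2.29, -2.20, -2.18 and -1.96, and Hoxa5, not well above background in STAM-INS, was at least 1.29-fold lower. None of these passed the threshold. Reg3b, Kap and Wnt10a entered the test only through STAM-INS, and Ache, Grik4, Fam217b, Hoxa5 and Aim2 only through STAM-NON. For these genes a difference was favoured by the filter, and their values are given as a description.

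The remaining lists held no gene past the threshold. Over all genes, 9.34% had an unadjusted p under 0.05. An unadjusted p under 0.05 was reached by 1 of 24 genes of insulin signalling, 0 of 14 endothelial, 0 of 10 lymphocyte, 0 of 7 neutrophil, 0 of 6 erythroid, 0 of 4 exocrine pancreas, 1 of 5 adipocyte, 2 of 19 hepatocyte and 0 of 12 tumor and fetal liver markers, and by 1 of 15 male-biased liver genes. STAM-NON 3 had a summed neutrophil marker signal of 329, against 145 to 161 in the other 5 STAM mice, and the summed erythroid signal ran from 91.7 to 709 in STAM-NON and from 116 to 931 in STAM-INS.

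Among the unnamed probes past the threshold, the probe A_30_P01026935, designed on chr4:116790373-116797823 (mm9), was lower with insulin by at least 4.62-fold, and it entered the test only through the untreated group. The 12 unnamed probes include 9 designed on genomic regions and were not analysed further here.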
